A study of Mus musculus with 2 samples.

Results

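The SMN complex is encoded in the mouse by Smn1, Gemin2, Ddx20, Gemin4, Gemin5, Gemin6, Gemin7, Gemin8 and Strap. These 9 genes were taken by symbol from the 32285 genes of the deposited tables, and all 9 were found, each with the identifier that GENCODE M21 gives it. The complex loads a ring of Sm proteins onto small nuclear RNAs and so builds the snRNPs of the spliceosome. SMN, the product of Smn1, is the protein whose shortage causes spinal muscular atrophy (SMA), and motor neurons of the spinal cord are the cells best known to be lost in that disease.

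Spinal cord cells of FVB mice at postnatal day 4 were profiled by droplet single-cell RNA sequencing. The SMA library came from mSmn-/-, hSMN22tg/0 pups, which have no intact mouse Smn allele. The Con library came from mSmn+/-, hSMN22tg/0 littermates, which keep 1 intact allele beside 1 mutant one, and pups of both groups carried the human SMN2 transgene. In the study's methods the cords of 3 pups were pooled for each library, so each group is 1 library, no test between groups was possible, and every interval given here is a 95% interval that covers counting error only.

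Each deposited count is the number of distinct molecules (UMIs) of a gene in a droplet, and levels are given as counts per 1000000 (CPM), the UMIs of a gene for every 1000000 UMIs of the cell class. The 2 libraries shared 8163 barcodes, of which the Con copy was the deeper in 8053, so the 6509 SMA cells with a shared barcode were left out. That left 6787 SMA and 8917 Con cells, with medians of 6109 and 6229 UMIs. Cells were clustered without the SMN complex genes, and clusters were named from markers, each name meaning that the cells were like that type. Of 13 named classes, 11 had at least 50 cells in each library. Erythroid cells, with 408 SMA and 1033 Con cells, are red blood cells and their precursors and not cells of the cord, so they were kept apart and 10 classes were compared: oligodendrocyte precursor cells (OPC), committed oligodendrocyte precursors (COP), oligodendrocytes, astrocytes, ependymal cells, microglia, endothelial cells, mural cells, fibroblasts and Schwann cells. Their own marker lists had a higher summed level in each of these classes than in any of the others, in both libraries. Because the clusters were named from these same lists, that follows largely from the naming and is no separate check of the names. The 10 classes held 6277 SMA and 7503 Con cells. Neurons, the cells of main interest in SMA, gave 43 SMA and 26 Con cells and were not compared. A further cluster of 1339 Con and 0 SMA droplets, led by Mycn and Stmn2, had a median of 49.5% ribosomal UMIs. It was left out because that share was above a limit of 30%, whatever its markers. Stmn2 is also on the marker list used for neurons. The fibroblast class was unequal, since 432 of its 615 Con cells and 1 of its 70 SMA cells fell in 1 cluster. The libraries also differed in sex-linked transcripts, with Xist, the RNA that coats the inactive X chromosome, at 1.51 CPM in SMA and 619 in Con, so the makeup by sex and the genotype cannot be told apart.

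Smn1 lies on chromosome 13 (GRCm38, chr13:100124852-100137690, plus strand) and has 9 annotated exons. The mutant allele lacks the exon before the last, exon 7 by the usual numbering, which holds the stop codon. Its sequence, read from the GENCODE transcript at chr13:100135689-100135739 and shown because the genotype turns on it, runs for 51 bases with the stop codon in capitals.
Smn1 exon before the last: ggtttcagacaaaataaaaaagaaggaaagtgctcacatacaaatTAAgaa
The last exon, of 310 bases, starts 1641 bases further on in the genome and follows it directly in the spliced transcript. Droplet reads come from near the 3′ end of a transcript, and the count tables do not show on which exon a read fell, so the Smn1 count was not taken as a check of the genotype. Whether reads from the human SMN2 transgene were counted as Smn1 was not tested.

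Pooled over classes, Smn1 did not differ between the libraries beyond counting error. Over the 10 classes it gave 2155 UMIs in SMA, a level of 52.4 CPM, and 2516 UMIs in Con, a level of 51.1. With classes compared like with like by the Mantel-Haenszel ratio, the SMA level was 0.998 of the Con level (interval 0.941 to 1.06). Of the 10 classes, 3 had a lower and 7 a higher Smn1 level in SMA, and in none did the interval of the ratio leave 0 on the log2 scale. Within classes, the interval lay above 0 in a microglial cluster, at 0.85 (0.03 to 1.69) on 30 UMIs in SMA and 24 in Con. It also lay above 0 in an oligodendrocyte cluster given below, and in no cluster did it lie below 0. The clustering gave 31 clusters in all, not all of them in the 10 classes. The share of such intervals over all genes and clusters was not taken.

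Smn1 had its highest level in OPC in both libraries. In OPC it was at 70.3 CPM in SMA (65.6 to 75.2) and 74.4 in Con (69.3 to 79.8). In COP it was at 68.4 (58.0 to 80.2) and 60.6 (54.6 to 67.0), and in ependymal cells, which line the central canal, at 56.7 (49.6 to 64.6) and 66.8 (55.8 to 79.4). These 3 classes held the first 3 places in both libraries. Mural cells had 49.6 in SMA and 48.0 in Con, Schwann cells 50.4 and 37.8, and astrocytes 43.6 and 43.0. Fibroblasts had 42.7 and 39.2, oligodendrocytes 40.9 and 39.6, endothelial cells 35.6 and 39.2, and microglia 37.8 and 34.7. From the lowest to the highest class the level differed 1.97-fold in SMA and 2.15-fold in Con. No neighbours in the order of the 10 classes had a ratio whose interval excluded equality, in either library. Sparse classes, such as mural cells of SMA with 28 Smn1 UMIs, could hide a step, so gradient and steps were not told apart. Classes further apart did differ, as the COP intervals lay above those of astrocytes, 39.3 to 48.3 in SMA and 39.1 to 47.1 in Con. Erythroid cells stood well below all of these, at 4.67 CPM in SMA and 3.14 in Con.

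**Figure D1:**
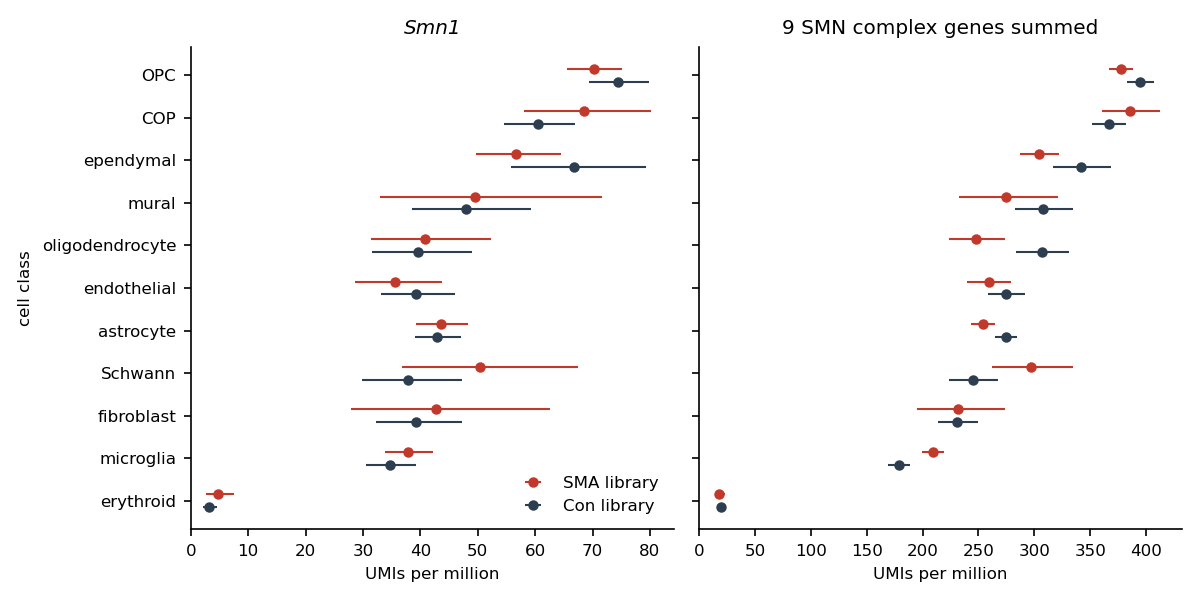
Levels of Smn1 (left) and of the 9 SMN complex genes summed (right), in CPM on linear axes, in 10 cell classes and in erythroid cells; points are the SMA (red) and Con (dark) libraries and bars are exact Poisson 95% intervals. OPC and COP lie at the top for the sum, microglia at the bottom of the 10 classes and erythroid cells far below.

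After thinning every cell to 2000 UMIs, 12.4% of SMA OPC (11.0% to 13.9%) and 15.2% of Con OPC (13.6% to 17.0%) had at least 1 Smn1 UMI. Without thinning the shares were 32.3% and 36.4%, at medians of 5608 and 5736 UMIs. In erythroid cells, where Smn1 had its lowest level, the thinned shares were 0.792% and 0.458%, at medians of 9689 and 9862 UMIs. The thinned OPC shares lay well above the erythroid ones. That was not particular to Smn1, since Strap was found in 28.4% of SMA and 30.4% of Con OPC and in 0.792% and 1.72% of erythroid cells. Haemoglobin UMIs count in the total of a cell, and their part in the low erythroid levels was not tested.

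Levels of the other members are also counts of 3′ ends, which do not grow with transcript length. Summed over the complex, 12079 UMIs in SMA and 14773 in Con were counted in the 10 classes, 294 and 300.0 CPM. Strap, Gemin7 and Smn1 supplied most of them in both libraries, and Gemin4 almost none. The sum was highest in COP and OPC, at 385 and 377 CPM in SMA and 366 and 395 in Con, and lowest in microglia, at 209 and 179. In erythroid cells it was 18.1 and 19.3.

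Gemin2 (chr12:59013393-59028470) encodes the partner of SMN that holds the Sm proteins before the ring closes. Its level was even across classes, between 13.1 and 21.7 CPM in 9 of the 10 classes in both libraries. Oligodendrocytes were the exception, at 7.14 in SMA and 9.33 in Con, from 11 and 20 UMIs.

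Ddx20 (chr3:105678270-105687574), also known as Gemin3, encodes a DEAD-box helicase, and Gemin4 (chr11:76210571-76217664) encodes its binding partner. Ddx20 was highest in ependymal cells, at 12.1 CPM in SMA and 16.1 in Con, and lowest in fibroblasts, at 1.64 and 4.59, from 1 and 13 UMIs. Gemin4 gave 24 UMIs in SMA and 15 in Con over all 10 classes and was at 0 in COP and fibroblasts of both libraries, where 0 UMIs allow for up to 3. The Gemin4 locus overlaps Glod4 on the same strand across its last exon, and reads from the shared stretch could be lost or assigned to the other gene.

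Gemin5 (chr11:58120002-58168539) encodes the subunit that recognises the small nuclear RNAs. It was at 8.86 CPM in SMA OPC and 11.8 in Con OPC, and at 8.56 and 11.8 in COP. Those were the first 2 places in both libraries. In the remaining classes it ranged from 3.54 to 8.22, on 2 to 67 UMIs a class.

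Gemin6 (chr17:80224441-80228497) and Gemin7 (chr7:19564946-19577595) encode a pair of proteins with folds like those of Sm proteins, and they did not follow each other. Gemin7 was highest in vessel cells and ependymal cells: endothelial cells had 85.3 CPM in SMA and 78.1 in Con, mural cells 72.6 and 83.4, and ependymal cells 61.2 and 79.2. Gemin6 was highest in OPC, at 19.2 and 17.0, and ependymal cells, at 18.3 and 20.7. It was lowest in COP, at 7.66 and 5.64, and oligodendrocytes, at 6.49 and 4.66, where Gemin7 kept 45.4 to 60.8.

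Gemin8 (chrX:166170454-166190512) encodes the protein that joins the Gemin6 and Gemin7 pair to SMN. Like Ddx20 it was highest in ependymal cells, with 34.8 CPM in SMA (141 UMIs) and 41.4 in Con (80 UMIs). In Con the next class, astrocytes, had 21.6, and that step was 1 of the few between neighbours whose interval excluded equality. In SMA the next class was mural cells, at 24.8 from 14 UMIs, and the step did not exclude equality.

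Strap (chr6:137735078-137751932), also known as Unrip, encodes a subunit at the edge of the complex that also acts outside it, and it was the most counted member in all 10 classes. COP had 198 CPM in SMA and 194 in Con, OPC 172 and 178, and microglia, the lowest, 83.2 and 64.0. COP stood above OPC and OPC above the following class with intervals that excluded equality in SMA, and COP stood above OPC in Con. The rank correlation between the libraries' class levels was 0.891 for Gemin7, 0.842 for Strap, 0.830 for Ddx20 and Gemin6 and 0.733 for Smn1. It was lower for Gemin5 (0.576), Gemin2 (0.564), Gemin4 (0.404) and Gemin8 (0.321), over 10 classes that were named from the same clustering.

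**Figure D2:**
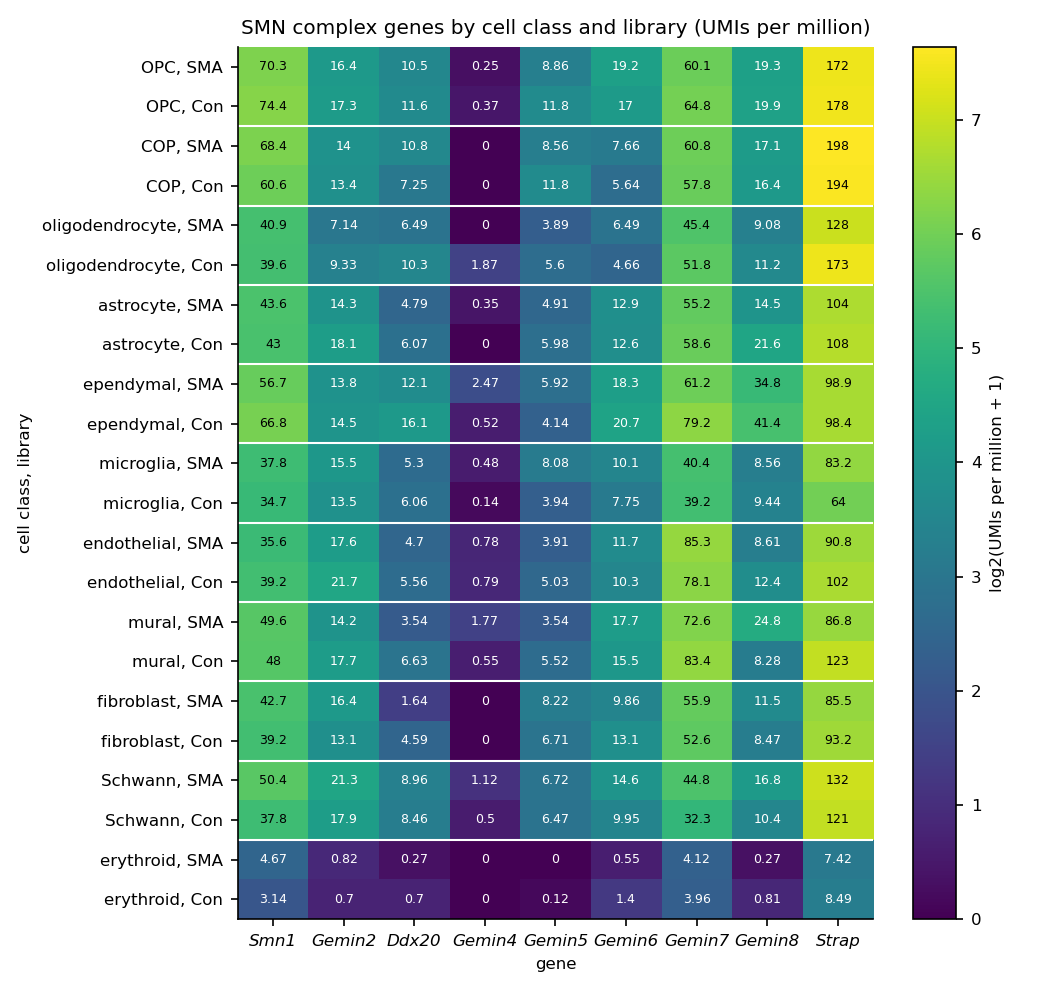
Heat map of the 9 genes (columns) in 10 compared cell classes and in erythroid cells of each library (rows); colour is log2(CPM + 1) and the number in each field is the level in CPM. Strap has the highest value in every row, Gemin4 does not exceed 2.47 anywhere, and Gemin8 peaks in ependymal cells.

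Between SMA and Con the members differed little. Within classes, 7 of the 9 were lower in SMA and 2, Gemin6 and Gemin4, were higher, with a median log2 ratio of -0.06, and with cells thinned to 2000 UMIs Gemin6 turned lower and Ddx20 and Gemin5 higher. Over all 14277 genes with at least 100 UMIs, 50.5% were lower and the median was -0.0020. Of the 8 members with at least 100 UMIs, 0 differed by 0.5 or more on the log2 scale, whereas 2.89% of all genes were lower and 3.14% higher by that much. The summed complex had a log2 ratio of -0.04 (-0.07 to 0.00047). Its interval fell below 0 once haemoglobin and mitochondrial genes were left out of the totals, at -0.06 (-0.09 to -0.02). That step also moved the median gene down, from -0.0020 to -0.022, and 54.4% of all genes were then lower.

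The members' own ratios follow in the order of their roles. Gemin2 had a log2 ratio of -0.09 (-0.25 to 0.06), on 626 UMIs in SMA and 794 in Con. Ddx20 had -0.18 (-0.40 to 0.03), Gemin5 -0.11 (-0.34 to 0.12) and Gemin7 -0.06 (-0.14 to 0.03). All of these intervals included 0. Strap had -0.02 (-0.08 to 0.03) on 5109 and 6395 UMIs, the tightest interval of any member. Gemin6 had 0.15 (-0.02 to 0.32), from 582 and 581 UMIs. Gemin4, with 39 UMIs in all, had 0.68 (-0.32 to 1.68), an interval too wide to place it.

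Gemin8 was the only member whose interval, pooled over the 10 classes, excluded 0. It had 675 UMIs in SMA and 824 in Con, with a log2 ratio of -0.18 (-0.33 to -0.03). An interval below 0 was found for 23.7% of all genes and one above 0 for 22.0%, so the share of members with such an interval was no higher than that background. Gemin8 is X-linked, and the 479 X-linked genes with enough counts had a median log2 ratio of -0.0056. Without class strata the ratio was -0.03 (-0.18 to 0.12). In astrocytes Gemin8 was at 14.5 CPM in SMA (124 UMIs) and 21.6 in Con (231 UMIs), a log2 ratio of -0.57 (-0.90 to -0.25). It was the only member with 100 UMIs in a class to pass 0.5 there, as 7.35% of genes did in astrocytes. Astrocytes without a cell cycle UMI had -0.44 (-0.85 to -0.04).

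**Figure D3:**
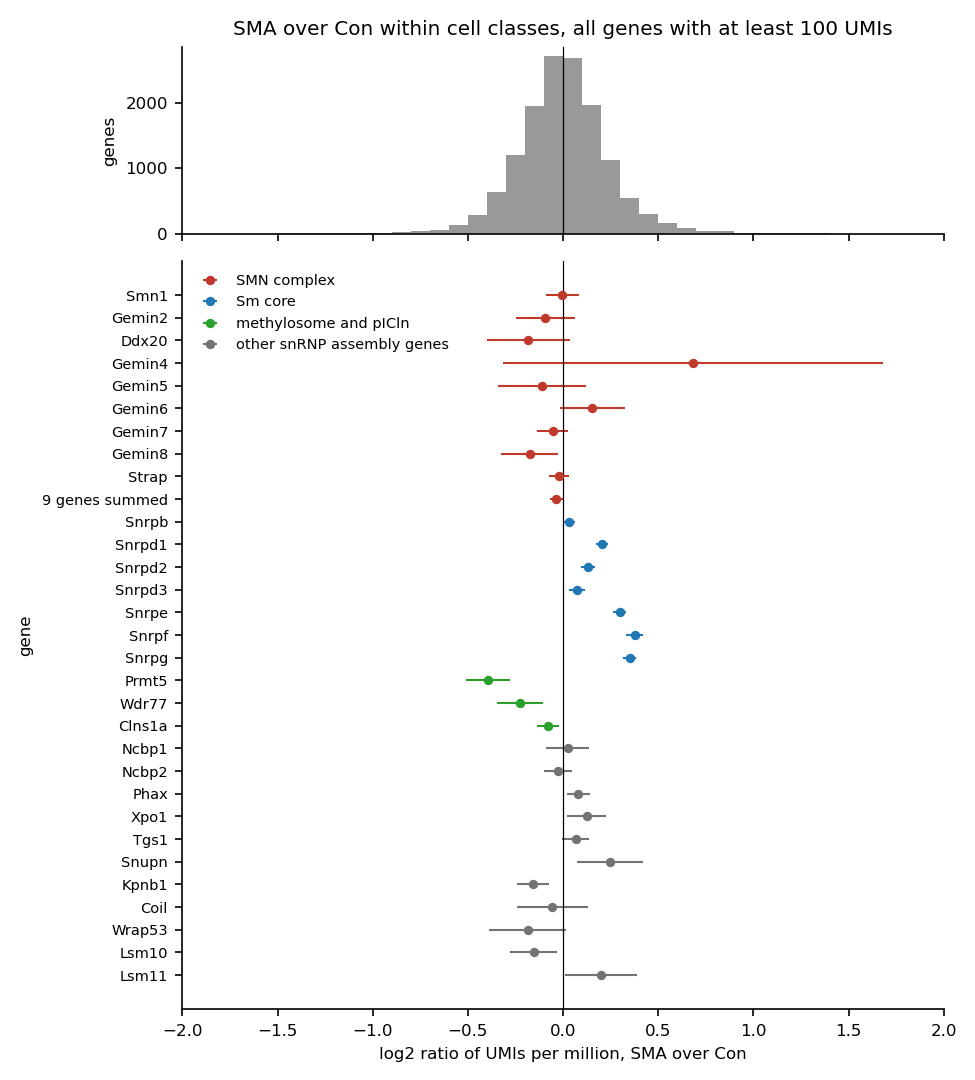
Log2 ratio of SMA over Con within cell classes: the histogram (top) counts all 14277 genes with at least 100 UMIs in bins of the ratio, shown from -2 to 2, and the points (bottom) are the 9 SMN complex genes, their sum and 21 other genes of snRNP assembly with 95% intervals. The complex genes lie near 0, the Sm core genes lie to the right and the methylosome genes to the left.

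Over the 90 pairs of a member and a class, 44 were lower and 42 higher in SMA. The interval was below 0 in 6 pairs and above 0 in 3, where 8.56% and 9.48% of all gene and class pairs had such intervals. Beside Gemin8 in astrocytes, the lower ones were Gemin2 in astrocytes (-0.35), Gemin5 in OPC (-0.41), Gemin7 in ependymal cells (-0.37) and Strap in oligodendrocytes and mural cells. The higher ones were Gemin5 and Strap in microglia and Gemin8 in mural cells, the last on 14 and 15 UMIs. The shares of 8.56% and 9.48% are those of single genes, and none was taken for sums of 9 genes. The summed complex had an interval above 0 in 2 classes, microglia and Schwann cells, and below 0 in 4. In microglia, the resident immune cells, it was at 209 CPM in SMA against 179 in Con, a log2 ratio of 0.23 (0.12 to 0.34). Strap led that difference with a ratio of 0.38 (0.21 to 0.55), on 690 and 454 UMIs. Gemin5 had 1.03 (0.38 to 1.72) on 67 and 28 UMIs. Of SMA microglia 14.0% were cycling, against 9.42% in Con. In microglia without a cell cycle UMI the complex had a ratio of 0.18 (0.05 to 0.32) and Strap 0.39 (0.17 to 0.60). Haemoglobin transcripts made up 2.33% of microglial UMIs in SMA and 3.88% in Con. The median gene with at least 100 UMIs in microglia had a log2 ratio of 0.065.

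In oligodendrocytes the complex stood lower in SMA, at 248 CPM against 307, a log2 ratio of -0.31 (-0.49 to -0.12). Strap carried most of it, at 128 against 173 CPM, with a ratio of -0.43 (-0.68 to -0.17). The class joined 2 clusters, one led by Ddc, Elovl7 and Tmem163 and one led by the myelin genes Mog and Mobp, in which the complex had 332 and 218 CPM in Con. The first cluster held 68 of 143 SMA cells and 145 of 251 Con cells. Within it the complex ratio was -0.21 (-0.43 to 0.01), and within the Mog cluster -0.15 (-0.54 to 0.24), so neither interval excluded 0 alone. Strap had -0.36 (-0.67 to -0.07) in the first cluster and 0.0030 (-0.56 to 0.57) in the second. Smn1 had -0.11 (-0.71 to 0.47) in the first cluster. In the Mog cluster Smn1 was at 37.7 CPM in SMA and 14.8 in Con, a ratio of 1.35 (0.10 to 2.80), on only 25 and 7 UMIs. The astrocyte sum had a ratio of -0.11 (-0.19 to -0.03), the ependymal sum -0.17 (-0.31 to -0.03), the OPC sum -0.06 (-0.13 to -0.0039) and the Schwann sum 0.28 (0.05 to 0.49). The median gene with at least 100 UMIs in a class had -0.054 in oligodendrocytes and -0.053 in astrocytes. It had -0.045 in ependymal cells, 0.0021 in OPC and 0.037 in Schwann cells.

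Other genes of snRNP assembly, a list of 21, were compared in the same way. All 7 Sm core genes, whose products the complex loads onto the RNAs, were higher in SMA, with a median log2 ratio of 0.20 and 6 intervals above 0, which 22.0% of all genes had. Snrpf had the highest ratio of the list at 0.38 (0.33 to 0.42), with 218 CPM in SMA and 166 in Con. All 3 genes of the methylosome and its chaperone, which modify and hand over the Sm proteins, were lower, with all 3 intervals below 0, which 23.7% of all genes had. Prmt5, the arginine methyltransferase, had the lowest ratio of the list at -0.39 (-0.51 to -0.28), with 25.2 and 32.6 CPM. In all, 8 of the 21 were lower and 13 higher, and 0 passed 0.5. The shares of 22.0% and 23.7% are over genes with at least 100 UMIs. Snrpf had 8980 UMIs in SMA and 8189 in Con, and Prmt5 1035 and 1606. Intervals narrow as counts grow, so those are not shares of genes counted as deeply as these.

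Gemin6 was the member that differed most between cycling and other cells. Cells were called cycling when 16 genes of mitosis and DNA synthesis gave at least 3 UMIs after thinning to 2000, and were compared with cells of their class with 0 such UMIs. In OPC, Gemin6 was at 32.2 CPM in cycling and 12.1 in other cells of SMA, from 120 and 71 UMIs. In OPC of Con it was at 31.0 and 8.93, from 108 and 43 UMIs. The log2 ratios were 1.41 (0.98 to 1.86) and 1.79 (1.27 to 2.34).

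The same was seen outside the oligodendrocyte lineage. In astrocytes Gemin6 was at 33.8 against 10.3 CPM in SMA and 26.1 against 9.29 in Con, log2 ratios of 1.72 (1.08 to 2.34) and 1.49 (0.85 to 2.10). In microglia it was at 29.3 against 6.43 in SMA and 21.8 against 5.50 in Con, ratios of 2.19 (1.49 to 2.89) and 1.99 (0.95 to 2.96) on 39, 34, 14 and 28 UMIs. Thus its interval lay above 0 in 6 of 6 comparisons. Over these and the 3 other ways of calling or thinning the cells, 24 of 24 ratios lay above 0, from 1.13 to 3.24, and 23 intervals did, the exception being SMA astrocytes with levels thinned to 2000 UMIs, at 1.60 (-0.08 to 3.09). Its partner Gemin7 had ratios from -0.05 to 0.57 in the 6 comparisons.

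Smn1 was higher in cycling than in other microglia, and in OPC and astrocytes its intervals included 0. Cycling microglia had 57.8 CPM against 30.1 in SMA and 60.9 against 30.3 in Con, log2 ratios of 0.94 (0.53 to 1.34) and 1.01 (0.46 to 1.52). In OPC the ratios were 0.15 (-0.07 to 0.37) and -0.02 (-0.26 to 0.22), and in astrocytes -0.32 (-0.85 to 0.17) and 0.10 (-0.33 to 0.51). The microglial interval lay above those of OPC and astrocytes in SMA and above that of OPC in Con, and overlapped that of astrocytes in Con. With cycling called from at least 5 UMIs, Con microglia had 0.66 (-0.06 to 1.31), an interval that included 0.

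The summed complex was higher in cycling cells in all 6 comparisons, with log2 ratios from 0.18 to 0.66 and all 6 intervals above 0. Ddx20, Gemin2 and Strap were above 0 in 6 of 6, with 3, 2 and 3 intervals above 0, and Gemin5 in 2 of 6, with no interval above 0. The median gene with at least 100 UMIs had -0.11 in SMA and -0.12 in Con OPC. It had -0.02 and -0.04 in astrocytes and -0.03 and 0.04 in microglia. The share of all genes with an interval above 0 is not given, here, for Gemin6 or for the Sm core genes. Not every member had 100 UMIs in the cells compared. Of those that had, 2 of 7 in OPC of SMA were higher by 0.5 or more (background 9.0% of genes) and 1 of 6 in Con (9.15%). In astrocytes 0 of 5 in SMA (10.7%) and 3 of 6 in Con (10.0%) were, and in microglia 2 of 4 in SMA (10.9%) and 1 of 3 in Con (15.6%). Gemin6 had under 100 UMIs in astrocytes of SMA and in microglia of both libraries. It is therefore missing from those counts, although its ratios there passed 0.5. All 7 Sm core genes were higher in cycling cells in each of the 6 comparisons, with medians from 0.44 to 0.84. By 0.5 or more, 4 of the 7 were higher in OPC of SMA and 3 in Con. The numbers were 5 and 3 in astrocytes and 5 and 5 in microglia, beside the same background shares. Cycling cells were deeper in 5 of the 6 comparisons, for example medians of 6585.5 and 5388 UMIs in OPC of SMA.

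**Figure D4:**
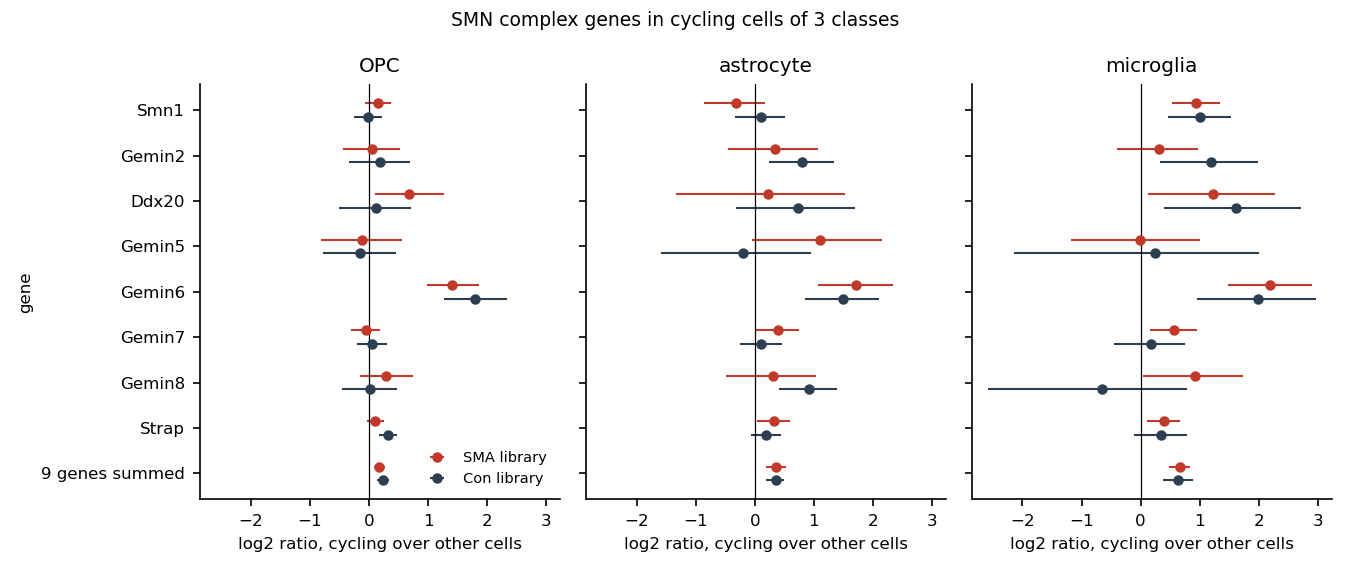
Log2 ratio of CPM in cycling over other cells, for 8 SMN complex genes and the sum of 9, in OPC, astrocytes and microglia; points are the SMA (red) and Con (dark) libraries with exact conditional 95% intervals. Gemin4, with too few UMIs, is not drawn; Gemin6 lies above 1.4 in all 3 panels, and Smn1 lies near 1 in microglia only.

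Along the oligodendrocyte lineage the members differed in where they were lower. Gemin6 was at 7.66 CPM in COP against 19.2 in OPC of SMA, a log2 ratio of -1.33 (-2.13 to -0.62), and at 5.64 against 17.0 in Con, -1.59 (-2.16 to -1.06). Cycling cells made up 27.0% of OPC in SMA and 28.4% in Con, but 0.380% and 0.867% of COP. OPC without a cell cycle UMI had 12.1 and 8.93 CPM of Gemin6, values between those of all OPC and of COP. Ddx20 had 0.04 (-0.66 to 0.67) in SMA and -0.67 (-1.20 to -0.17) in Con. Strap was higher in COP, with ratios of 0.20 (0.05 to 0.35) and 0.12 (0.02 to 0.23). At this step 28.8% of all genes in SMA and 31.0% in Con were lower by 0.5 or more.

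Smn1 was lower at the next step, where 33.2% of all genes in SMA and 28.2% in Con were lower by 0.5 or more. It was at 40.9 CPM in oligodendrocytes against 68.4 in COP of SMA, a log2 ratio of -0.74 (-1.19 to -0.31), and at 39.6 against 60.6 in Con, -0.61 (-0.97 to -0.27). Between OPC and COP it had -0.04 (-0.30 to 0.21) in SMA and -0.30 (-0.48 to -0.12) in Con. Of the members with 100 UMIs, 8 of 8 were lower in oligodendrocytes than in OPC in both libraries, and 6 in SMA and 5 in Con were lower by 0.5 or more. In those comparisons 52.1% of all genes in SMA and 47.9% in Con were lower by that much, and the median gene had -0.55 and -0.45. The 10 oligodendrocyte markers alone, myelin genes among them, summed to 68401 CPM in oligodendrocytes of SMA and 60987 in Con, and their part in these ratios was not tested. Against that background Smn1, at -0.78 (-1.17 to -0.41) and -0.91 (-1.25 to -0.58), lay near or somewhat below the median gene, while Strap, at -0.42 and -0.04, lay above it. The summed complex had -0.61 in SMA and -0.36 in Con.

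**Figure D5:**
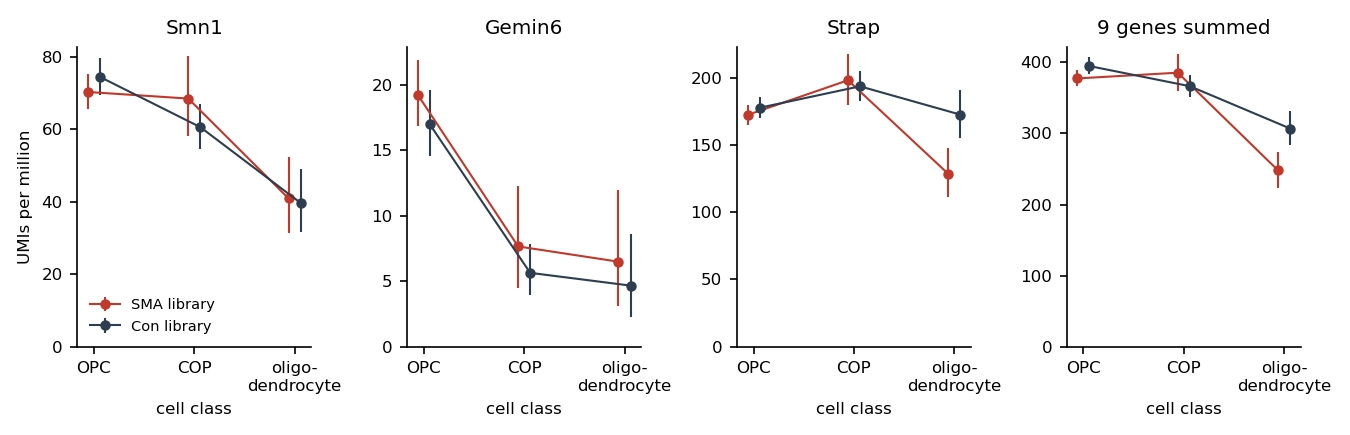
Levels of Smn1, Gemin6, Strap and the 9 genes summed, in CPM on axes that start at 0, in OPC, COP and oligodendrocytes of the SMA (red) and Con (dark) libraries; bars are exact Poisson 95% intervals. Gemin6 is lower in COP than in OPC, Smn1 is lower in oligodendrocytes than in COP, and Strap and the sum lie lower in SMA than in Con oligodendrocytes.

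The 5 genes whose class pattern was most like that of Smn1 included no member of the complex. Over 20 points (10 classes in 2 libraries), and among 11138 other genes with at least 500 UMIs, the highest Pearson correlations of log2(CPM + 1) were those of Nudt21 (0.936), Cacybp (0.923), Cenpv (0.910), Chgb (0.909) and Kif3a (0.907). The median gene had 0.256. Of the members, Gemin8 had 0.712 (rank 621), Strap 0.629 (rank 1299), Ddx20 0.596 (rank 1613) and Gemin5 0.514 (rank 2546). Gemin6 had 0.414, Gemin7 0.366 and Gemin2 0.086, below the median gene. With erythroid cells included, Nudt21 again ranked 1, at 0.988, and the median gene had 0.773. All 7 members with at least 500 UMIs beside Smn1 then lay above the median gene, among them Strap at 0.951 (rank 473), Gemin7 at 0.933 (rank 1135) and Gemin2 at 0.903 (rank 2301), and Ddx20 was the lowest of them at 0.842 (rank 4150). The points share libraries and differ in depth, so these correlations describe the pattern only. Genes also differ in counts: with erythroid cells, Gemin2 had 1429 UMIs and Gemin5 659, against 13008 for Nudt21. Levels of sparse genes carry more counting error, and its part in the ranks was not tested.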

How the data were processed

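The deposited counts are raw UMI counts per gene and droplet, which the authors made with Cell Ranger (4.0.0 in the file headers; the methods name another version) on mm10. Seurat 3.2.2 is named in the submitters' notes. Droplets with 200 to 4000 genes and under 10% mitochondrial UMIs were kept; beyond that upper limit doublets were not sought. Clustering (scanpy 1.11.5 and igraph 0.11.9, 2000 variable genes, 30 components, 20 neighbours, Louvain resolution 1) left out the members, the 21 other snRNP assembly genes, and ribosomal, mitochondrial, haemoglobin, Xist and Y-linked genes. Con held 1 cluster of 1339 droplets with high ribosomal shares, left out, and 1 cluster stayed unnamed. Levels were UMIs summed per class and library. Intervals were exact Poisson, exact conditional binomial or Clopper-Pearson, or, pooled over classes, Mantel-Haenszel with the Greenland-Robins error, tested on simulated data (numpy 2.4.6, scipy 1.17.1). A count of 0 UMIs allows for up to 3.

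The members, the gene lists and the rules were chosen with earlier results of these data known. All 9 members are named; of the 21 other genes, the Sm genes as a group and the highest and lowest ratio; and the 5 genes most like Smn1. Total UMIs were 85872075 in SMA and 97894084 in Con. Alternatives covered shared barcodes, depth, filters, weights, scaling, clustering, strata, gene minimum and cycling calls.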

Additional observations from a re-analysis of the deposited data

How the results depend on the processing

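No ratio whose interval excluded 0 changed sign under the alternatives run, and the ratio of Smn1, the ratio of the summed complex, the count of members lower in SMA and the count past 0.5 stayed within the range set for them. The Smn1 log2 ratio ranged from -0.07 (cells thinned to 2000 UMIs) to 0.04 (no class strata). Members lower in SMA numbered 6 or 7. With haemoglobin and mitochondrial genes left out, the median gene had -0.022, against -0.0020 in the main setting. The interval of the summed complex then lay below 0, at -0.06 (-0.09 to -0.02), as it did at clustering resolution 2, at -0.04. That of Gemin8 lay below 0 in 9 settings of 12 that gave an interval, and not with shared barcodes kept, cells thinned or no class strata. That of Gemin6 lay above 0 without an upper gene limit and without class strata, where that of Gemin4 also lay above 0 (0.94, 0.0066 to 1.87) and that of Strap below (-0.06, -0.12 to -0.01). Thinning turned the ratio of Gemin6 to -0.08, that of Ddx20 to 0.06 and that of Gemin5 to 0.07. The fibroblast cluster of Con cells was left out as an alternative chosen after seeing the data, and Smn1 then had -0.0023. Of the values for single members, classes and lineage steps, 741 stayed within the main interval and 18 moved beyond it. The causes were not tested. No paired analysis was possible because each group is 1 library. With 1 library a group, differences between mice, dissociations or sexes cannot be told from those between genotypes, and members below 20 UMIs in a class have wide intervals.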
